A study of Mus musculus with 7 samples.

Results

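The genes described here encode 10 enzymes and enzyme partners that make prostaglandins, thromboxane, leukotrienes and hydroxylated arachidonate. They were chosen by name, as 10 rows of the 53379 genes in the count table, and all 10 passed the filter on low counts that left 16234 genes for testing. Their RNA was measured in tumour-associated macrophages sorted as CD45, CD11b and F4/80 positive cells from tumours of MC38, a mouse colon carcinoma line, on day 21 after implantation. All C57BL/6J hosts were fed a high-fat diet; 3 were Gpr65 knockout mice and 4 were Gpr65 wild-type mice, with 1 library per mouse. The sources used here do not say how the knockout was made, or the sex and age of the mice.

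Arachidonic acid released from membranes is oxidised by the cyclooxygenases Ptgs1 and Ptgs2 to prostaglandin H2, which terminal synthases turn into prostaglandin E2, prostaglandin D2 or thromboxane. In the other branch Alox5, helped by the membrane protein Alox5ap, makes leukotriene A4, which Lta4h converts to the neutrophil attractant leukotriene B4 and Ltc4s to the cysteinyl leukotrienes. Gpr65 is a proton-sensing receptor that raises cyclic AMP, and prostaglandin E2 acts on the same second messenger through its receptors Ptger2 and Ptger4.

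The libraries held 22449772 to 30483733 counts. Gpr65, the targeted gene, had 20 to 30 counts in knockout libraries and 1785 to 2912 in wild-type libraries. The sorted markers were present in every library. Ptprc (CD45) had 498 to 923 CPM (counts scaled to library size, with TMM scaling between libraries) in knockout and 584 to 718 CPM in wild-type mice, Itgam (CD11b) had 196 to 203 CPM in knockout and 121 to 293 CPM in wild-type mice, and Adgre1 (F4/80) had 495 to 1330 CPM in knockout and 327 to 661 CPM in wild-type mice. Knockout 1 stood apart from the other libraries, with 940 of the tested genes at 0 counts against 51 to 281 elsewhere, so results that rest on it are given with and without it.

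Promoter windows of 8 members were found in the RefSeq table for build GRCm38.p6; Alox5ap and Alox15 had no entry. Printed here are those of Ptgs2, which held the most motif matches, of Hpgds, the member with a promoter that had the smallest p, and of Alox5, the member with a promoter that had the largest fold change. Each is given 5′ to 3′ on the gene's strand, from 250 bases before to 30 bases after the annotated start, and capitals mark matches to the motifs searched. The positions are chr1:150099781-150100060 (plus strand) for Ptgs2, chr6:65144701-65144980 (minus strand) for Hpgds and chr6:116461149-116461428 (minus strand) for Alox5.
Ptgs2: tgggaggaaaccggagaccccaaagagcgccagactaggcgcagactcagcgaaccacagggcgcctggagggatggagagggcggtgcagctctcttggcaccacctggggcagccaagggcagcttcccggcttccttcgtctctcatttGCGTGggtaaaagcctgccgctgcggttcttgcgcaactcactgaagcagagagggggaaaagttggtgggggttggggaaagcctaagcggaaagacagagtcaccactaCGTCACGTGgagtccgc
Hpgds: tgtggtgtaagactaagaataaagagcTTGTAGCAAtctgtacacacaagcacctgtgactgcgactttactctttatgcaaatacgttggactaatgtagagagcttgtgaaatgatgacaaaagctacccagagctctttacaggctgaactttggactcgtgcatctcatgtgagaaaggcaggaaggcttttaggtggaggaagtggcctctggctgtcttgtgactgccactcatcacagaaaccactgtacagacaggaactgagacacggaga
Alox5: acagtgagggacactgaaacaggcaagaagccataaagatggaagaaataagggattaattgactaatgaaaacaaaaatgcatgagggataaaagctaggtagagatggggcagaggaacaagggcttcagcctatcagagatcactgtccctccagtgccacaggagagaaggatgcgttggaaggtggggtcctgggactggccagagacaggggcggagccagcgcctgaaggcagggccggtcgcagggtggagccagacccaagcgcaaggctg

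The motifs were searched on both strands of the whole window, which runs to 50 bases after the start. Positions count from the RefSeq start of each window. For Ptges (chr2:30903248-30903547) and Tbxas1 (chr6:38918736-38919035) the window lies inside the longer gene span given below, not at its end. Ptgs2 held the half-site of the cyclic AMP response element, TGACG, read on the opposite strand from position 14 after the start. This half-site occurred in 1 of the 8 members' windows and in 20.8% of all 32851 windows. It overlapped the hypoxia-response core ACGTG, which was read on both strands and was found in 19.6% of all windows. The other core searched, GCGTG, lay at -98 in Ptgs2 and at -165 in Ptges, and 32.4% of all windows held it. Hpgds held the C/EBP motif TTGCNNCAA on the opposite strand at -223 (2.08% of all windows), and Tbxas1 the TATA box TATAAA on both strands at -11 and -13 (13.6%). The full response element TGACGTCA was in 0 of the 8 windows and in 1.79% of all. Alox5 held no match to these motifs. A match says that the letters are present, not that a factor binds there.

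By level per length, in TPM (counts per base of exon, scaled to the same sum in each library), Alox5ap and Ptgs1 were the most abundant members, at 119 ± 30.2 and 107 ± 29.6 TPM over all libraries (SD, n = 7). They were followed by Ptgs2 at 68.4 ± 23.2, Hpgds at 42.1 ± 18.3, Tbxas1 at 36.5 ± 6.19 and Lta4h at 23.6 ± 3.25 TPM. Ltc4s averaged 16.4 ± 10.8, Alox5 6.90 ± 5.38, Ptges 5.76 ± 3.04 and Alox15 5.49 ± 8.78 TPM. Neighbours in this order differed by less than the larger of their SDs, apart from Ptgs1 and Ptgs2, Ptgs2 and Hpgds, and Tbxas1 and Lta4h. With the longest annotated transcript as the length in place of all exons, Ptgs1 came first and Tbxas1, at 59.8 TPM, passed Ptgs2 and Hpgds, and the order of the 5 least abundant members was the same.

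**Figure D1:**
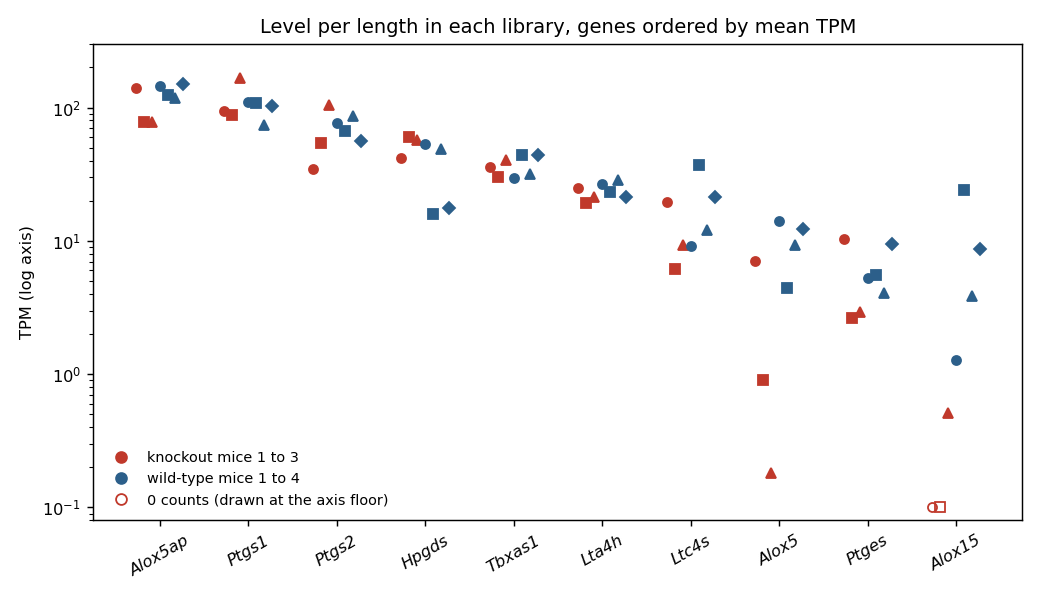
Level per length of each member (TPM, log axis), with genes ordered by their mean over all libraries, knockout mice in red and wild-type mice in blue. Alox5ap and Ptgs1 lie between 74.3 and 167 TPM in every library, whereas Alox5 spreads over 0.182 to 14.1 TPM and Alox15 over 0 to 24.1 TPM.

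No member passed the test for a difference between the genotypes. The test was edgeR's quasi-likelihood test with Benjamini-Hochberg adjustment over all 16234 genes and a threshold of 0.05. It called 0 of 10 members, where 0.037% of all tested genes were called. DESeq2 and limma voom also called 0 members, against 0.691% and 0.0616% of all genes tested by each. At an unadjusted p under 0.05 were 2 of 10 members, Hpgds and Alox15, where 5.37% of all genes were. Alox15 passed the filter on low counts only through its wild-type libraries, which fixed its direction, so nothing is read from that count. Of the fold changes 4 were positive and 6 negative, with a median of -0.10 on the log2 scale beside 0.00 over all tested genes. A p that misses the threshold does not show equal levels, and an interval is given with each member for the size of the difference. These are bulk libraries, in which fewer cells of a type and less RNA per cell cannot be told apart.

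**Figure D2:**
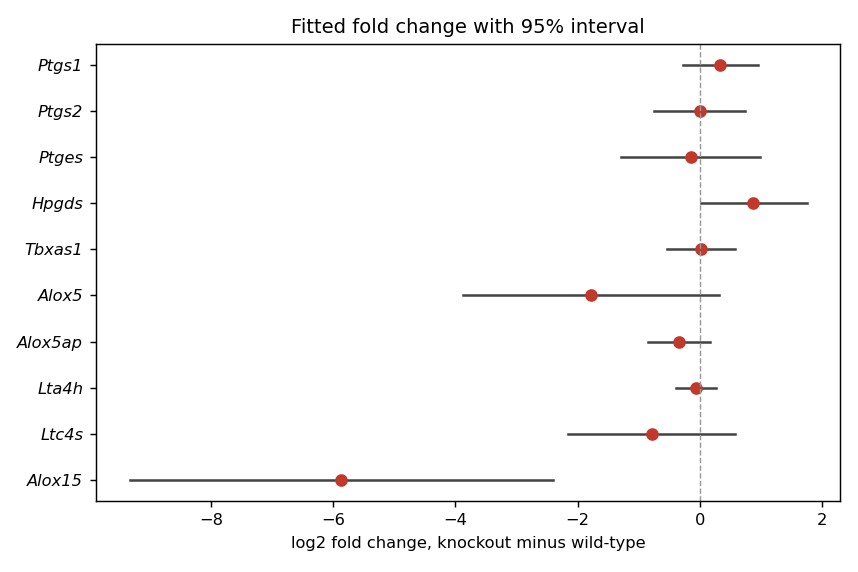
Fitted log2 fold change of each member, knockout minus wild-type (point), with its 95% interval (line). The intervals of Alox15 (-9.33 to -2.40) and Hpgds (0.02 to 1.75) do not include 0 before adjustment, and that of Lta4h (-0.38 to 0.27) is the narrowest.

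Of the cyclooxygenases, Ptgs1, the form that many cells keep on (chr2:36230426-36252272, GRCm38, plus strand), measured 158, 187 and 288 CPM in knockout mice 1 to 3, against 167, 212, 111 and 177 CPM in wild-type mice 1 to 4. Knockout 3 was the highest and wild-type 3 the lowest, and the other 5 libraries lay between 158 and 212 CPM. The log2 fold change was 0.34 (SE 0.27, 95% interval -0.27 to 0.95, edgeR adjusted p = 1), and it was 0.50 without knockout 1 and 0.05 without knockout 3.

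Ptgs2, the inducible cyclooxygenase (chr1:150100031-150108227, plus strand), had 68.5, 135 and 214 CPM in knockout mice, against 136, 153, 151 and 114 CPM in wild-type mice. Both the lowest and the highest library were knockouts, so the coefficient of variation was 52.2% in knockout and 13.1% in wild-type mice. The means were 139 ± 72.6 CPM in knockout (SD, n = 3) and 139 ± 18.2 CPM in wild-type mice (SD, n = 4). The log2 fold change was 0.00 (SE 0.33), with an interval that runs from 0.599 to 1.68 times the wild-type level. Its sign turned with the knockout left out: it was 0.32 without knockout 1 (edgeR adjusted p = 0.71) and -0.44 without knockout 3 (adjusted p = 0.92). In TPM, Ptgs2 made up 26.9%, 38.0% and 38.6% of the summed cyclooxygenase level in knockout mice, against 40.9%, 38.1%, 53.6% and 35.3% in wild-type mice. Ptgs1 was the larger share in every library other than wild-type 3.

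The terminal synthases divided this branch differently from mouse to mouse. Hpgds, the haematopoietic synthase of prostaglandin D2 (chr6:65117293-65144908, minus strand), measured 117, 211 and 163 CPM in knockout mice, against 132, 51.5, 121 and 50.4 CPM in wild-type mice. Wild-type 2 and 4 were low, while wild-type 1 and 3 lay within the knockout range, so the groups overlapped. The means were 164 ± 46.8 CPM in knockout (SD, n = 3) and 88.7 ± 43.8 CPM in wild-type mice (SD, n = 4). The log2 fold change of 0.88 (SE 0.38, unadjusted p = 0.047) had a 95% interval of 0.02 to 1.75 and an edgeR adjusted p of 0.92, and over the alternatives the adjusted p ran from 0.42 to 1. It was 1.07 without knockout 1, 0.70 without wild-type 2 and 0.66 without knockout 2.

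Tbxas1, the thromboxane synthase (chr6:38875404-39084585, plus strand), had 140, 150 and 162 CPM in knockout mice, against 105, 200, 111 and 179 CPM in wild-type mice. The knockout libraries lay within the wild-type range, and the log2 fold change was 0.02 (SE 0.25, 95% interval -0.54 to 0.58, edgeR adjusted p = 1). An antisense gene, Gm42962, shares 144 exon bases with Tbxas1 and held 1298 counts over all libraries, beside 28128 for Tbxas1. No source used here says whether reads were assigned by strand, so reads in such shared bases could go to either gene.

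Ptges, the inducible microsomal synthase of prostaglandin E2 (chr2:30889471-30929863, minus strand), was the lowest of these synthases. It measured 17.6, 5.65 and 5.15 CPM in knockout mice, against 8.03, 11.0, 6.17 and 16.6 CPM in wild-type mice. Knockout 1 was the highest library and the other knockouts the lowest, and the log2 fold change of -0.14 (SE 0.50, 95% interval -1.28 to 0.99, edgeR adjusted p = 1) became -0.97 without knockout 1 (adjusted p = 0.50). The fibroblast markers, at 299, 132 and 37.5 summed CPM in knockout mice, against 120, 132, 214 and 320 in wild-type mice, were likewise highest in knockout 1 and wild-type 4. Most of that sum was Col3a1, at 240 CPM in both of these libraries, and Dcn and Pdgfra were highest in them too. Col1a1, with 0 counts in knockout 1, and Col1a2 were instead highest in wild-type 2, at 2.20 and 2.62 CPM. The part of fibroblasts in the Ptges values was not tested. The 5 fibroblast markers were all tested and none was called, with 1 positive and 4 negative fold changes.

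As shares of the summed TPM of these synthases, Hpgds held 47.8%, 64.7% and 57.1% in knockout mice, against 60.2%, 24.4%, 57.7% and 24.7% in wild-type mice. Tbxas1 held 40.4%, 32.5% and 39.9% in knockout mice, against 33.8%, 67.0%, 37.5% and 62.0% in wild-type mice. Hpgds was therefore the largest share in all 3 knockout mice and in wild-type 1 and 3, and Tbxas1 in wild-type 2 and 4. Ptges held 2.84% to 11.7% in knockout and 4.81% to 13.3% in wild-type mice. The ratio of Hpgds to Tbxas1 averaged 1.53 ± 0.413 (SD, n = 3) in knockout and 1.02 ± 0.745 (SD, n = 4) in wild-type mice, a difference smaller than the wild-type SD.

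**Figure D3:**
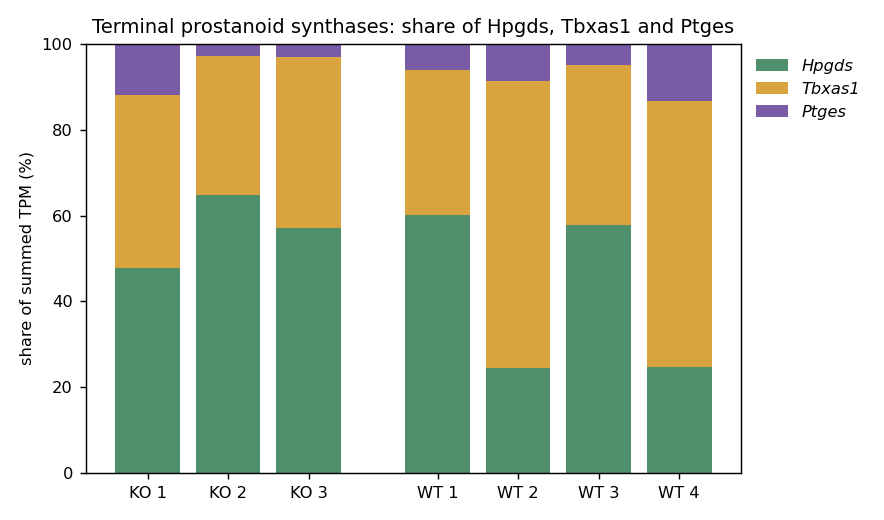
Share of Hpgds, Tbxas1 and Ptges in their summed TPM (percent, stacked bars), 1 bar per library, with knockout mice on the left and wild-type mice on the right. Wild-type 2 and 4 have a Hpgds share of 24.4% and 24.7%, and the other 5 libraries one of 47.8% to 64.7%.

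In the leukotriene branch Alox5, the 5-lipoxygenase (chr6:116410077-116461178, minus strand), measured 12.6, 2.03 and 0.331 CPM in knockout mice, against 22.5, 9.18, 14.6 and 22.4 CPM in wild-type mice. The counts behind these values were 369, 50 and 9 in knockout mice, against 541, 238, 441 and 614 in wild-type mice. Knockout 2 and 3 lay below every wild-type mouse, and knockout 1 lay within the wild-type range. The log2 fold change was -1.78 (SE 0.92, 95% interval -3.87 to 0.31), with an edgeR adjusted p of 0.99. Without knockout 1 it was -3.89 (adjusted p = 0.093), and limma voom with library weights, which uses all libraries, gave -4.14 (adjusted p = 0.16). Without knockout 3 it was -1.23. The 5 monocyte markers summed to 578, 516 and 356 CPM in knockout mice, against 914, 951, 715 and 727 CPM in wild-type mice. Most of that sum was Ccr2, a chemokine receptor, at 489, 428 and 294 CPM in knockout mice, against 871, 792, 621 and 625 CPM in wild-type mice (edgeR adjusted p = 0.73). Ly6c2, Plac8 and Vcan overlapped between the groups, with unadjusted p from 0.36 to 0.70, and no gene of the list was called. The sums of 7 macrophage markers were 13100 to 25100 CPM in knockout and 13500 to 15800 CPM in wild-type mice, with 6 positive fold changes and none called. Of the neutrophil markers, S100a8, S100a9 and Cxcr2 also had knockout 2 and 3 below every wild-type mouse and knockout 1 within the wild-type range. Among wild-type mice they were highest in wild-type 2, where Alox5 was lowest. Retnlg was lower in every knockout than in every wild-type mouse, and Ltf had knockout 3 within the wild-type range. Csf3r had a positive fold change, and Ly6g and Camp did not pass the filter on low counts. The part of monocytes and neutrophils in the Alox5 values was not tested.

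Alox5ap, which presents arachidonate to Alox5 (chr5:149264767-149288153, plus strand), had 86.0, 60.4 and 48.9 CPM in knockout mice, against 80.0, 88.9, 65.1 and 94.6 CPM in wild-type mice. Knockout 2 and 3 were again the lowest libraries, but by less than for Alox5. The log2 fold change was -0.34 (SE 0.22, 95% interval -0.84 to 0.17, edgeR adjusted p = 1), and -0.60 without knockout 1. In TPM, Alox5ap exceeded Alox5 19.7-fold, 85.9-fold and 427-fold in knockout mice, against 10.3-fold, 28.0-fold, 12.9-fold and 12.2-fold in wild-type mice. The highest of these ratios, in knockout 3, rests on 9 counts of Alox5. The antisense gene Gm19719 shares 189 exon bases with Alox5ap and held 154 counts over all libraries, beside 14107 for Alox5ap.

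Lta4h, the hydrolase that makes leukotriene B4 (chr10:93453411-93484875, plus strand), was the steadiest member, at 65.5, 63.9 and 57.9 CPM in knockout mice, against 62.7, 71.0, 67.2 and 58.7 CPM in wild-type mice. Its coefficient of variation was 6.44% in knockout and 8.23% in wild-type mice, where the medians over all tested genes were 28.3% in knockout and 24.1% in wild-type mice. With a log2 fold change of -0.06 (SE 0.14, 95% interval -0.38 to 0.27, edgeR adjusted p = 1), its fold interval, 0.768 to 1.20 times the wild-type level, was the narrowest of the 10 members on the log scale.

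Ltc4s, the synthase of leukotriene C4 (chr11:50236461-50238616, minus strand), had 8.54, 3.38 and 4.15 CPM in knockout mice, against 3.58, 19.1, 4.68 and 9.65 CPM in wild-type mice. The groups overlapped, with wild-type 2 the highest. The log2 fold change was -0.78 (SE 0.60, 95% interval -2.15 to 0.58, edgeR adjusted p = 1) and came to -0.15 without wild-type 2 and -1.32 without knockout 1. The antisense gene Gm26542 shares 268 exon bases with Ltc4s and held 80 counts over all libraries, beside 1431 for Ltc4s. The Lta4h to Ltc4s ratio in TPM was 1.27, 3.14 and 2.31 in knockout mice, against 2.91, 0.619, 2.39 and 1.01 in wild-type mice, so that Ltc4s was the higher of the pair in wild-type 2.

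Alox15, a lipoxygenase known in the mouse from resident peritoneal macrophages and eosinophils (chr11:70344152-70352031, minus strand), had the largest fitted difference among the members. It measured 0, 0 and 0.551 CPM in knockout mice, against 1.21, 29.7, 3.62 and 9.58 CPM in wild-type mice. The counts were 0, 0 and 15 in knockout mice, against 29, 771, 109 and 262 in wild-type mice, and a count of 0 allows up to 0.102 CPM in knockout 1 and 0.122 CPM in knockout 2, for counting error only. Each knockout mouse lay below each wild-type mouse, by a small gap between knockout 3 and wild-type 1, and wild-type values spread over 1.21 to 29.7 CPM. Among the members 1 of 10, Alox15, had all knockout below all wild-type mice, as did 3.33% of all tested genes. The filter on low counts fixed its direction, so nothing is read from that count. The fitted log2 fold change was -5.87 (SE 1.53, 95% interval -9.33 to -2.40, unadjusted p = 0.0041). Its edgeR adjusted p was 0.73, DESeq2 gave 0.15, and over all alternatives the adjusted p ran from 0.15 to 1. The fold change was -5.29 without knockout 1, -4.67 without wild-type 2 and -11.21 without knockout 3, which leaves the knockout group at 0 counts.

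**Figure D4:**
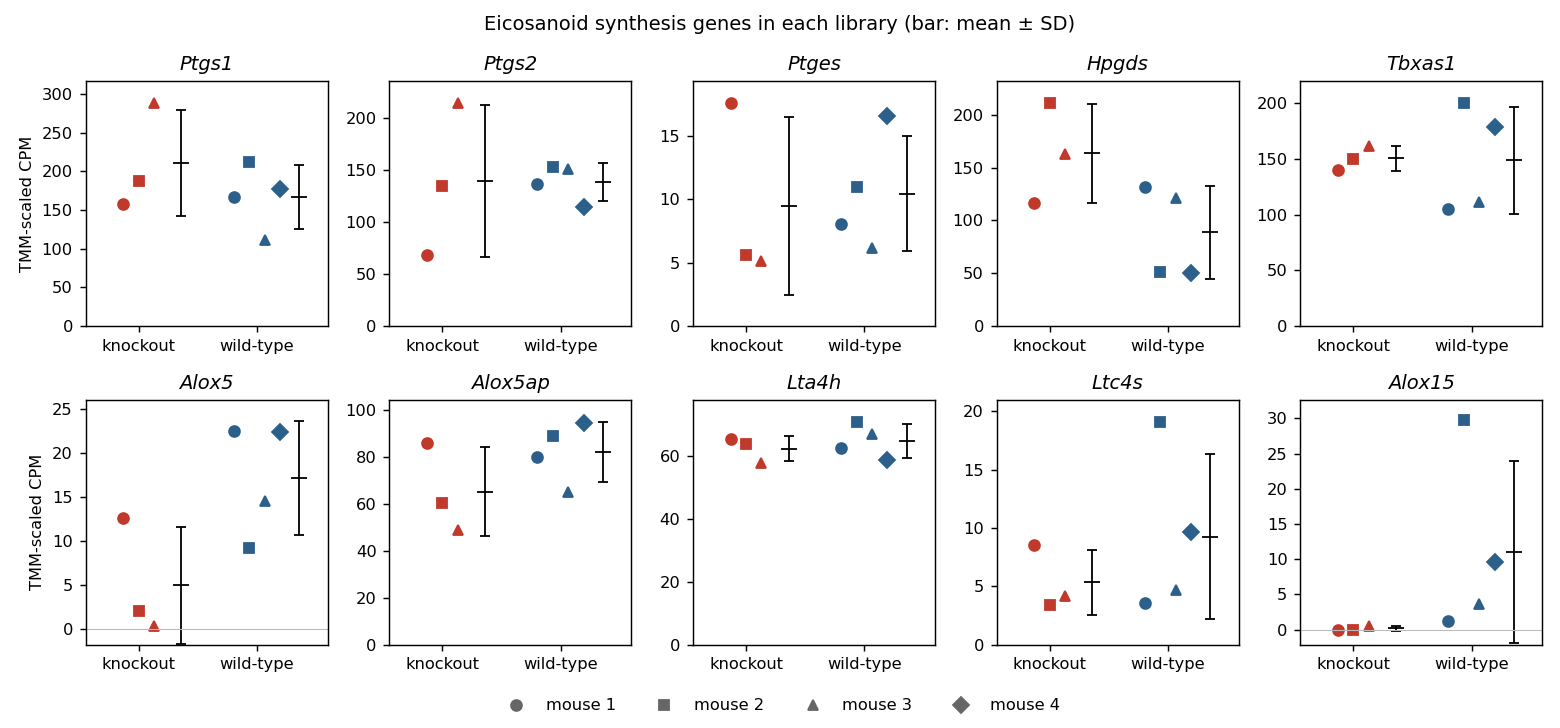
TMM-scaled CPM of the 10 members in each library, knockout mice in red on the left of each panel and wild-type mice in blue on the right, with the marker shape giving the mouse number and the black bar the mean ± SD. Alox15 does not overlap between the groups, Alox5 is low in knockout 2 and 3, and Lta4h varies little.

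Several members ordered the libraries alike across the genotypes. The 3 libraries with the most Ltc4s were wild-type 2, wild-type 4 and knockout 1, which were also the 3 with the most Ptges and the most Alox5ap, and the 3 with the least Hpgds. In knockout 1 Hpgds stood at 117 CPM, close to the 121 CPM of wild-type 3. A pair of receptors of this pathway set the same 3 libraries apart. Ltb4r1, the high-affinity leukotriene B4 receptor, had 50.6, 12.9 and 19.0 CPM in knockout mice, against 27.9, 87.0, 30.5 and 128 CPM in wild-type mice. Ptger4, a prostaglandin E2 receptor, had 93.0, 159 and 115 CPM in knockout mice, against 108, 56.7, 119 and 45.2 CPM in wild-type mice. Of the markers, Adgre1 was lowest and Cdh1 (an epithelial cadherin that macrophages can also express) highest in the same 3 libraries. Ptprc, the macrophage marker Csf1r and the B cell marker Cd79b were also lowest there. The neutrophil markers S100a8 and Cxcr2, the eosinophil marker Ccr3 and the fibroblast marker Dcn were also highest there. Other markers of these lists, among them S100a9, Siglecf and Col3a1, ordered the libraries differently. Adgre1 had 495, 1330 and 802 CPM in knockout mice, against 661, 378, 646 and 327 CPM in wild-type mice. Cdh1 had 167, 37.6 and 76.0 CPM in knockout mice, against 123, 375, 131 and 437 CPM in wild-type mice. The other markers on the epithelial list did not set these 3 libraries apart: Epcam was lowest in knockout 1, at 1.61 CPM, and Krt8 and Krt18 had 0 counts there. The likeness of these orders was noticed in the values and was not tested.

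**Figure D5:**
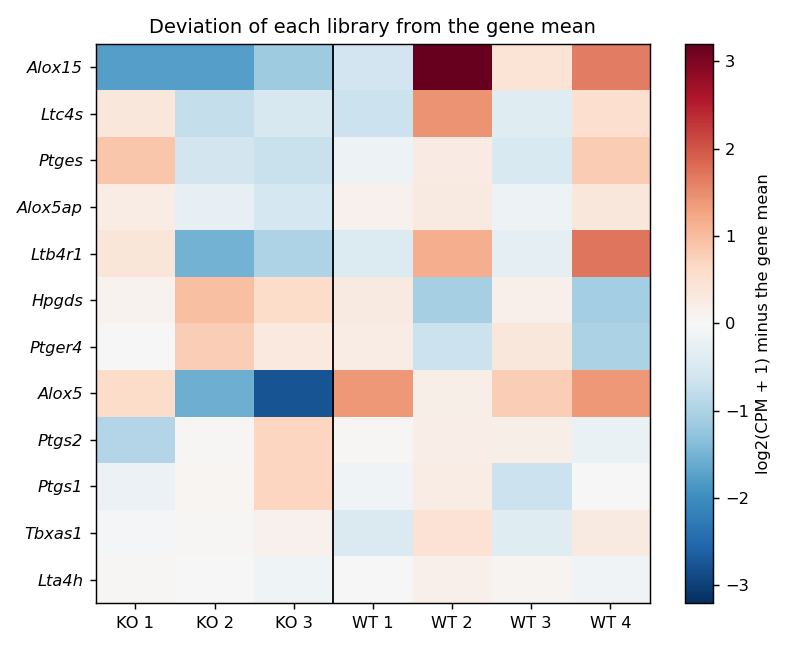
Deviation of each library from the gene's mean over all libraries, in log2(CPM + 1), for the 10 members and the receptors Ltb4r1 and Ptger4, with knockout mice left of the line and wild-type mice right of it. Ltc4s, Ptges, Alox5ap and Ltb4r1 lie above their mean in knockout 1, wild-type 2 and wild-type 4, and Hpgds and Ptger4 lie below theirs in wild-type 2 and 4.

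Cells other than macrophages also carry these enzymes, and their markers were examined beside the members. The 5 T and NK cell markers summed to 1.88, 16.7 and 179 CPM in knockout mice, against 7.65, 20.1, 28.9 and 30.7 CPM in wild-type mice. Each of the 5 was highest in knockout 3, where Cd8a had 86.6 CPM and Cd3e 49.9 CPM. All were tested and 0 were called, with 4 positive and 1 negative fold changes. The part of T and NK cells in the values of knockout 3 was not tested. Of 8 neutrophil markers, summed levels were 84.8 to 182 CPM in knockout and 81.7 to 194 CPM in wild-type mice, 5 of 6 tested genes had a negative fold change, 0 were called and Ly6g was at 0 in every library. Csf3r, which macrophages also express, made up most of that sum. Of 5 eosinophil markers the sums were 3.30 to 3.62 CPM in knockout and 1.04 to 22.6 CPM in wild-type mice, both tested genes were negative and not called, and Epx had 0 counts in 6 of 7 libraries. Of 8 mast cell and basophil markers the sums were 3.28 to 9.59 CPM in knockout and 5.20 to 20.8 CPM in wild-type mice, with 2 tested, both negative and not called, and Ms4a2 at 0 in all libraries. Platelets make much thromboxane, and their 7 markers summed to 0.717 to 3.23 CPM in knockout and 1.49 to 4.04 CPM in wild-type mice, with 1 positive and 2 negative fold changes among 3 tested, none called, and Treml1 at 0 throughout. The 5 peritoneal-type macrophage markers summed to 10.8 to 16.7 CPM in knockout and 15.6 to 25.2 CPM in wild-type mice, mostly Icam2, with 2 tested, both negative and not called. Among them Timd4, a phosphatidylserine receptor of resident macrophages, had 0.410, 1.26 and 0.735 CPM in knockout mice, against 1.96, 8.76, 2.85 and 2.05 CPM in wild-type mice (unadjusted p = 0.010, edgeR adjusted p = 0.78). Like Alox15 it was lower in each knockout than in each wild-type mouse, as were 3.33% of all tested genes. The other genes of that list overlapped between the groups. Icam2 had 9.96 to 14.5 CPM in knockout and 13 to 15.8 CPM in wild-type mice, and Gata6 was highest in knockout 2, at 0.895 CPM. Gata6, Selp and Lyve1 did not pass the filter on low counts.

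Of the 8 neutrophil markers 1, Retnlg, followed the order of Alox15 in wild-type mice. It had 0, 0.122 and 0.551 CPM in knockout mice, against 0.874, 48.6, 2.82 and 10.6 CPM in wild-type mice. The others did not: S100a8 had 6.49 CPM in knockout 1, where Alox15 had 0 counts, and was higher in wild-type 1 (4.37 CPM) than in wild-type 3 (1.46 CPM). Cxcr2 likewise had 7.21 CPM in knockout 1, S100a9 and Ltf ordered the wild-type mice differently from Alox15, and Csf3r had a positive log2 fold change of 0.75. The eosinophil sum had the order of Alox15 in wild-type mice, at 1.04, 22.6, 2.22 and 6.91 CPM in mice 1 to 4. All 3 knockout sums, at 3.30 to 3.62 CPM, however lay above those of wild-type 1 and 3. Within that list Prg2 had the order of Alox15 in wild-type mice, at 0, 5.94, 0.265 and 1.79 CPM, and 0 counts in every knockout mouse. Siglecf and Ccr3 had that wild-type order too, but had 1.88 to 2.85 and 0.407 to 1.74 CPM in knockout mice. Il5ra had 0 counts in every knockout mouse and another order in wild-type mice. Prg2 and Il5ra did not pass the filter on low counts. The part of other cells in the Alox15 and Alox5 values was not tested.

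Beyond these enzymes, 53 other genes of the pathway were listed by role, and 33 of them passed the filter on low counts. EdgeR called 0 of the 33, and 4 had an unadjusted p under 0.05 (12.1%, where 5.37% of all tested genes did), 1 higher and 3 lower in knockout mice. DESeq2 called Alox12e, Ptgr1 and Ptgir, all lower in knockout mice, where it called 0.691% of all genes. Alox12e and Ptgir passed the filter on low counts only through their wild-type libraries, so their direction was fixed by it and nothing is read from these counts. The median log2 fold change of the 33 was -0.13, beside 0.00 over all tested genes. By edgeR none was called in either direction in any list. By role, 1 of 5 tested genes of arachidonate release had a positive fold change, 4 of 6 other prostanoid and lipoxygenase enzymes, 2 of 5 genes of leukotriene conversion and 1 of 7 of transport and inactivation. Among the receptors 1 of 4 tested prostanoid receptors and 4 of 6 receptors of leukotrienes and related lipids had a positive one. Ptgds, the other prostaglandin D2 synthase, had 0 counts in every library.

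Upstream, the genes of arachidonate release were led by Pla2g15, a lysosomal phospholipase, and Pla2g4a, the cytosolic phospholipase that supplies most arachidonate in activated macrophages. Pla2g4a had 52.2, 48.3 and 40.3 CPM in knockout mice, against 55.9, 51.0, 42.9 and 49.8 CPM in wild-type mice (log2 fold change -0.09, SE 0.16, edgeR adjusted p = 1). Pla2g15 had 157, 337 and 289 CPM in knockout mice, against 175, 239, 165 and 175 CPM in wild-type mice (0.47, SE 0.27, adjusted p = 1). Of the other synthases, Ptges3, a cytosolic prostaglandin E2 synthase and Hsp90 co-chaperone, had 75.5 to 98.6 CPM in knockout and 72.9 to 81.0 CPM in wild-type mice, and Fam213b, a prostaglandin F2 alpha synthase, had 33.4 to 50.8 CPM in knockout and 31.9 to 51.0 CPM in wild-type mice. The lipoxygenase Alox12e had 0 counts in all 3 knockout libraries, as in wild-type 1, and 0, 1.39, 0.465 and 2.23 CPM in wild-type mice. It was called by DESeq2 (adjusted p = 0.025) and not by edgeR (adjusted p = 0.78).

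Downstream, 2 genes that inactivate or sense these lipids had all knockout below all wild-type mice (2 of the 33, or 6.06%, beside 3.33% of all genes). They were Ptgr1 and Ptgir, and the filter on low counts fixed the direction of Ptgir, so nothing is read from that share. Ptgr1, which oxidises leukotriene B4 and reduces prostaglandin metabolites, had 8.64, 12.2 and 7.35 CPM in knockout mice, against 21.2, 29.1, 16.2 and 21.0 CPM in wild-type mice. Its log2 fold change was -1.22 (SE 0.27), with an adjusted p of 0.66 by edgeR and 0.013 by DESeq2. Ptgir, the prostacyclin receptor, had 0, 0.203 and 0.515 CPM in knockout mice, against 1.16, 6.95, 1.53 and 8.33 CPM in wild-type mice, a log2 fold change of -4.21 (SE 1.17) with an adjusted p of 0.74 by edgeR and 0.0035 by DESeq2. Cyp4f18, which hydroxylates leukotriene B4 in mouse leukocytes, had 288, 729 and 435 CPM in knockout mice, against 269, 335, 304 and 247 CPM in wild-type mice (0.75, SE 0.29, unadjusted p = 0.031, edgeR adjusted p = 0.92). Knockout 2 was the highest there, and knockout 1 lay within the wild-type range.

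The other named genes downstream did not reach an unadjusted p of 0.05. The dipeptidase Dpep2, which turns leukotriene D4 into E4, had 8.50 to 11.1 CPM in knockout and 10.2 to 14.0 CPM in wild-type mice. The leukotriene C4 exporter Abcc1 had 53.9 to 101 CPM in knockout and 66.7 to 85.5 CPM in wild-type mice, and the prostaglandin exporter Abcc4 had 19.1 to 23.0 CPM in knockout and 16.5 to 24.6 CPM in wild-type mice. Of the prostaglandin E2 receptors, the log2 fold change of Ptger4 was 0.57 (SE 0.35), and that of Ptger2, at 6.59 to 10.4 CPM in knockout and 6.87 to 15.2 CPM in wild-type mice, was -0.27 (SE 0.32). Of the leukotriene receptors, the fold change of Ltb4r1 was -1.31 (SE 0.64), and that of the cysteinyl leukotriene receptor Cysltr1, at 87.8 to 106 CPM in knockout and 88.8 to 139 CPM in wild-type mice, was -0.19 (SE 0.18). The edgeR adjusted p of these 7 genes ranged from 0.98 to 1.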

How the data were processed

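The authors deposited raw read counts per gene, whole numbers without normalization, for 7 libraries; the labels' protocols name a Takara SMART-seq kit and polyA RNA. The submitters' processing notes list DESeq2 1.24.0, BWA 0.7.12, FastQC 0.11.5 and cutadapt 1.15 and build GRCm38, with no order; no source used here names the counting program or its strand setting. Genes were matched by identifier to GENCODE M21 (99.8% of 53379). No 2 libraries of a genotype agreed within sampling noise, so each mouse is 1 replicate.

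The counts were fitted with edgeR 4.0.16 (R 4.3.3): TMM scaling, default filter by group, robust quasi-likelihood F test, genotype alone as a term, Benjamini-Hochberg adjustment over 16234 genes, threshold 0.05. Fold changes are knockout minus wild-type, and CPM is TMM-scaled. TPM divides the counts by exon length. DESeq2 1.42.0 and limma 3.58.1 (voom), other scalings and filters, the mouse number as a block, and each library left out were alternatives. The fit was also run on simulated counts as a check, whose outcome is not given here. Floors are 3 counts.

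Members and lists were chosen with earlier results of these data known. Besides the members, the text names the 2 highest-expressed genes of each pathway list and those with an unadjusted p under 0.05; markers, and genes that share exons with a member, were picked to describe a result.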

Additional observations from a re-analysis of the deposited data

Results flagged for a closer look

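Among 30 sets of 4 wild-type values examined (the 10 members and the summed level of each gene list), 1 had a mouse far from the others, where chance flags about 1 in 20. Wild-type 2 was the highest in the summed neutrophil markers, and its gap to the nearest mouse was 0.946 of the whole range. Sets of 3 knockout values were not examined.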

How the results depend on the processing

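Every alternative fit called 0 members, as did an adjusted p threshold of 0.1. Over all genes edgeR called 6, and 11 with no filter on low counts, 1 with the mouse number as a replicate block, 3 to 14 with 1 library left out (14 without knockout 1, 3 without knockout 2), while DESeq2 called 129 and limma voom 10. Of the other pathway genes DESeq2 called 3. Same-numbered mice correlated at 0.05 to 0.09 in their deviations from the group means, beside 0.08 to 0.1 for the best wild-type match of each knockout mouse. These values show no pairing by number, but with so few mice they cannot exclude one. The fold changes of Ptgs1, Hpgds, Alox5, Alox5ap, Lta4h and Ltc4s kept their sign in all 16 alternatives, although that of Lta4h came to 0.00 in 1 of them. The fold change of Alox15 was negative in all 16 as well, but the filter on low counts fixed its direction, so nothing is read from its sign. That of Ptgs2 turned negative with library size alone (-0.14), with no filter (-0.01) and under the replicate block (-0.22), and ran from -0.44 to 0.32 with 1 library left out. Tbxas1 turned negative with library size alone (-0.08), was 0.00 with no filter, and ran from -0.14 to 0.19 with 1 library left out. Ptges ran from -0.97 to 0.16 with 1 library left out. The cause was not tested. Alox15 ran from -11.21, without knockout 3, which leaves the knockout group at 0 counts, to -4.67 without wild-type 2. The spread between mice limits what these libraries resolve, and it differed widely between members, from an SE of 0.14 for Lta4h to 1.53 for Alox15 on the log2 scale. By longest transcript length 5 of 10 members kept their rank in level.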
